A study of Mus musculus with 4 samples.

Results

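The genes described here are 10 regulators of the step from G1 into S phase: the D-type cyclin genes Ccnd1, Ccnd2 and Ccnd3, the kinase genes Cdk4 and Cdk6, the inhibitor genes Cdkn1a, Cdkn1b, Cdkn2a and Cdkn2b, and Myc. They were chosen by name, with earlier results of these data known, and every PRDM6 peak whose assigned gene symbol was one of them was taken. This gave 27 of the 13977 peaks in the deposited list, assigned to 6 of the 10 genes. Ccnd2, Ccnd3, Cdk4 and Cdkn1a had no assigned peak. The study asked where PRDM6, a PR domain protein with zinc fingers that is found in smooth muscle cells (SMCs), sits on the genome. Primary SMCs were grown from the outflow tract, the vessel region at the outlet of the heart, of late-gestation mouse embryos. All 4 samples came from cells infected with a lentivirus that overexpressed FLAG-tagged PRDM6, and 2 were FLAG immunoprecipitations (PRDM6 ChIP) and 2 were Input chromatin without immunoprecipitation. The tagged protein was therefore recorded and not the endogenous one, and no cells without the virus are among these samples. Per the study's methods, such SMCs were taken from Prdm6 fl/fl embryos, which carry Prdm6 alleles that Cre can delete, from mice kept on a C57/Black6 background.

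D-type cyclins bind CDK4 and CDK6, and the active complexes phosphorylate the retinoblastoma protein, which releases E2F factors and lets cells enter S phase. The INK4 inhibitors, encoded by Cdkn2a and Cdkn2b, bind CDK4 and CDK6 themselves, whereas the CIP/KIP inhibitors p21 and p27, encoded by Cdkn1a and Cdkn1b, bind whole cyclin and kinase complexes. MYC is a transcription factor that drives growth and cell cycle genes, and in the vessel wall these genes govern whether SMCs stay quiescent or proliferate.

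Each peak carried a −log10 p-value from each immunoprecipitation, called against its own input, and the matched peak carried the smaller value. The interval of a matched peak joined the extents called in both immunoprecipitations. Replicates are named first-listed and second-listed, since the list gave them by order only, and both values are given as the n = 2 measurements of each peak. The study describes the immunoprecipitations both as coming from the same sample and as independent replicates, so the spread between them may be technical. The irreproducible discovery rate (IDR) is estimated from the ranks in both replicates. The global IDR given below is the expected share of irreproducible peaks among those ranked at least as high. The Input group had no values of its own in the list, so no difference between groups could be tested, and the values below are set beside the whole list or all genes. The list gave no read totals, but for 58.3% of the values of the first-listed and 63.5% of the second-listed replicate the p-values followed 1 genome-wide Poisson background, which gives back how many fragments high such a peak stood. Those heights had medians of 14 and 13 fragments, as MACS2 may have scaled them. No RNA was measured in these samples, so neither the cell type nor the expression of any gene could be checked here from its markers. The study describes such cultures as largely positive for smooth muscle marker proteins.

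An assigned peak was found at 6 of the 10 genes (60%), beside 20.0% of all 21938 protein-coding genes. Because the genes were chosen with earlier results of these data known, this and the shares below are descriptions only. Of the 10 genes, the same 6 had a peak of the promoter class, that is within 3 kb of a transcription start site (TSS). Such a peak was found at 8.24% of protein-coding genes (1807, of 4379 with any assigned peak). Global IDR reached 0.05 or less for a peak of 1 gene, Ccnd1, beside 1.63% of protein-coding genes. Counting every peak within 100 kb of a TSS, whatever gene it was assigned to, 9 of 10 genes had one, all but Ccnd3, beside 44.0%. By role, 1 of 3 D-type cyclin genes, 1 of 2 kinase genes, 1 of 2 CIP/KIP genes, both INK4 genes and Myc had a peak. Cdk6 held 13 of the 27 peaks, Myc 5, Ccnd1 4, Cdkn2a 3, and Cdkn1b and Cdkn2b 1 each. Among the 5243 genes with a peak in the list the median was 2 peaks, and 75 had as many as Cdk6, 785 as many as Myc and 1160 as many as Ccnd1. Cdk6, at 189524 bp, is far longer than the median protein-coding gene of 17425 bp.

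**Figure D1:**
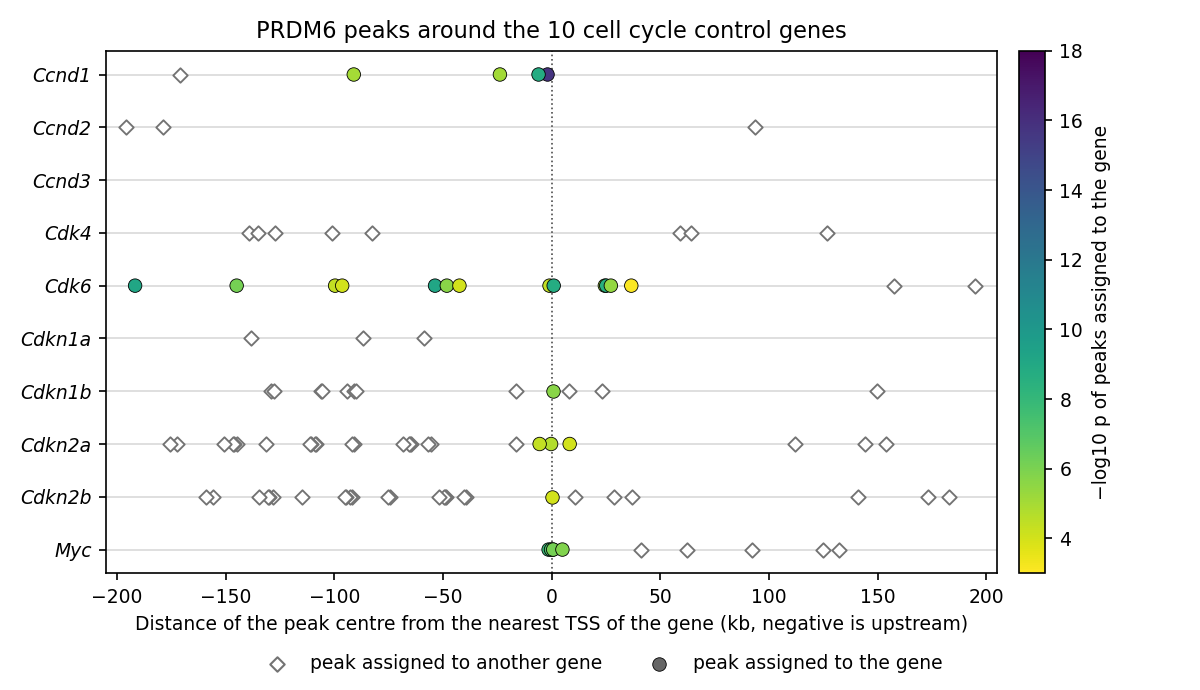
Each row is a gene and each symbol a peak, placed by the distance of its centre from the nearest TSS of that gene (kb, negative is upstream). Filled circles are peaks assigned to the gene, coloured by −log10 p, and open diamonds are peaks assigned to another gene. The 27 filled circles lie on 6 rows, with the darkest just upstream of Ccnd1 at 15.7, and the rows of Ccnd2, Ccnd3, Cdk4 and Cdkn1a hold none.

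Ccnd1 encodes cyclin D1, the D-type cyclin best known as a target of growth factor signals. Its nearest peak was the strongest of all 27. This peak lay at chr7:144941245-144942378 (mm10), 1320 bp upstream of the TSS in the authors' annotation, outside the gene. Its −log10 p was 21.0 in the first-listed and 15.7 in the second-listed replicate, with heights of 29 and 23 fragments. These were percentiles 99.5 and 97.8 of the list, and the matched value was at percentile 99.2. Its global IDR was 0.00447, and it was the only one of the 27 peaks (3.70%, 95% Wilson interval 0.657% to 18.3%) at or below 0.05, beside 3.33% of all peaks. The replicates placed their summits 46 bp apart, and each summit lay in the stretch that both replicates called.

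The sequence at this summit is shown because it carries the highest value of the 10 genes. It is the plus strand of GRCm38 at chr7:144941680-144941880, the 201 bases centred on the matched summit, and the capitals mark CG dinucleotides.
Ccnd1 upstream: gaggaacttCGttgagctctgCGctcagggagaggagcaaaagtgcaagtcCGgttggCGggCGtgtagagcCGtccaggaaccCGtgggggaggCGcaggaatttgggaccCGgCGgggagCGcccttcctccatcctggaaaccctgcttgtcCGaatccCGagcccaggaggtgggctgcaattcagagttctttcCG
The 201 bases had a GC content of 62.7% and held 14 CG dinucleotides. Over all summits the median was 2, 80.7% of windows held at least 1, and 4.81% held 14 or more. None of the AP-1, TEAD, E-box and E2F motifs or hexamers counted below lay in this window.

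The other 3 Ccnd1 peaks were distal intergenic and upstream of the gene. The peak at chr7:144945787-144946114, 5862 bp from the TSS, had −log10 p of 8.75 and 9.98 and a global IDR of 0.209. The peak at chr7:144963584-144963864, 23659 bp away, had 10.2 in the first-listed and 5.10 in the second-listed replicate, and the farthest, 90876 bp away at chr7:145030801-145031160, had 5.00 and 5.53. Both replicates thus put the proximal peak above these, and the order of the others differed between replicates. Summits of the replicates lay 26 bp to 68 bp apart at all 4 Ccnd1 peaks, closer than the median of 121 bp over the list.

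The summit of the 5862 bp peak is shown to set its base composition beside that of the proximal peak. It is the plus strand of GRCm38 at chr7:144945799-144945999, with TTTCCT, a hexamer counted below, in capitals.
Ccnd1 distal: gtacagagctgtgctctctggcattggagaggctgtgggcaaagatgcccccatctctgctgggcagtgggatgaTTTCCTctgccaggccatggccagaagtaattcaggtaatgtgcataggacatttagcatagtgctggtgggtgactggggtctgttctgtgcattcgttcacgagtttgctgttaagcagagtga
Its GC content was 52.2% and it held 2 CG dinucleotides, against 14 at the proximal summit.

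Ccnd2 and Ccnd3 encode the other D-type cyclins and had no assigned peak. Yet 1 strong peak lay near Ccnd2, at chr6:127056988-127058244, 92763 bp from its nearest TSS and 66918 bp beyond its 3′ end. It had −log10 p of 18.9 in the first-listed and 19.9 in the second-listed replicate, a height of 27 fragments in both and a global IDR of 0.0024. The authors assigned it to Fgf23, a hormone gene beside Ccnd2. It exceeded the Ccnd1 proximal peak in the matched value, but not in the first-listed replicate. Ccnd3 was the emptiest locus, with no peak within 500 kb of any TSS, as for 17.2% of protein-coding genes. Its nearest peak, assigned to Tjap1, lay 1222388 bp away.

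Cdk4 and Cdk6 encode the catalytic partners of the D-type cyclins and differed in the number of peaks. Cdk4 had none. Its 3 peaks within 100 kb belonged to Os9, at 58714 bp and 63451 bp, and to Ctdsp2, at 82262 bp, with matched −log10 p of 3.68, 5.42 and 5.85. Cdk6 had 13 peaks on chromosome 5, of which 7 were distal and upstream, 2 were at the promoter and 4 were in intron 2. Their matched −log10 p ran from 3.09 to 9.10 with a median of 5.42, beside 5.53 for the list. No Cdk6 peak reached a global IDR of 0.05, and the lowest was 0.155.

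Cdk6 has several annotated TSSs, and the authors measured the distal distances from the outermost. The 2 promoter peaks both lay past that one, inside the gene record. The first, chr5:3342306-3343414, had −log10 p of 5.00 and 4.39. The other, chr5:3344296-3346109, was the widest of the 27, with 1814 bp over calls of 1340 bp and 1602 bp. Only its second-listed call overlapped a later TSS, and the first-listed call began past that TSS. This peak had 8.75 in the first-listed and 9.98 in the second-listed replicate, and 304 bp of it were exonic and 233 bp coding. The 300-base promoter that RefSeq gives for Cdk6 (GRCm38.p6, chr5:3343643-3343942) fell in the gap between them, with no base under a peak and 229 bp to the nearest one.

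The 4 intron peaks spanned 12.5 kb. The pair at chr5:3368512-3368980 and chr5:3369129-3369639 had 7.71 and 4.98, and 8.52 and 11.4, so the second of the pair was the higher in both replicates. The peak at chr5:3371405-3371609 had 5.42 and 6.61. The farthest, chr5:3380797-3381015, had 6.15 in the first-listed replicate and 3.09, the lowest value of any of the 27 peaks, in the second-listed. Both replicates nevertheless put their summit on the same base there, and 1 bp apart at the peak before it.

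The 7 distal Cdk6 peaks lay 39659 bp to 188832 bp upstream of the outermost TSS. The strongest of them was the farthest, chr5:3151652-3152653, with 11.1 in the first-listed and 9.10 in the second-listed replicate and heights of 19 and 16 fragments. The peak at chr5:3289883-3290475 was close to it, at 9.48 and 9.10, and the other 5 had matched values from 4.04 to 6.15. No protein-coding gene precedes Cdk6 on this chromosome, whose first 3000000 bases are unknown in the assembly, and the first of these peaks lay 151651 bp past them. The 7 peaks in the stretch before the gene gave 20.5 per Mb of known sequence. Over the full length of chromosome 5, its unknown bases included, there were 4.65 per Mb. Another intron peak inside Cdk6, at chr5:3501406-3502260 with 11.1 and 9.10, was assigned to Fam133b and is not among the 13.

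Sequences at 3 Cdk6 summits are shown, each 201 bases of the plus strand of GRCm38 around the matched summit. The farthest upstream peak (chr5:3152180-3152380) is shown for its AP-1 motif. The promoter peak whose second-listed call overlaps a TSS (chr5:3345206-3345406, a window past that TSS) is shown for its TEAD motif. The last intron peak (chr5:3380827-3381027) is shown for its E-box and for the shared summit base, which is the central base of the run. Capitals mark only the motif named here for each window.
Cdk6 far upstream: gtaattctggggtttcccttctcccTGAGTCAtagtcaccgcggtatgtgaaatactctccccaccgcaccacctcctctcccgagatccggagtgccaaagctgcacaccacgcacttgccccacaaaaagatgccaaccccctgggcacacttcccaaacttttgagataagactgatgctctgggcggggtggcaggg
Cdk6 promoter peak: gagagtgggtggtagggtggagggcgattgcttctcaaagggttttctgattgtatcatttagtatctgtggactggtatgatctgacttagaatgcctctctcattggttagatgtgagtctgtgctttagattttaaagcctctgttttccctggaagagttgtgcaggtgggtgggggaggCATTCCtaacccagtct
Cdk6 intron 2: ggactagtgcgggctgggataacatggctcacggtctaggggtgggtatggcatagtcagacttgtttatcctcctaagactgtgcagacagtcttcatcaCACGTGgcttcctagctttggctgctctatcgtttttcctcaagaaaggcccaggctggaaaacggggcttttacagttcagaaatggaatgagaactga
At the far upstream peak the summits of the replicates were 444 bp apart, so the window covers the summit of the first-listed replicate only. In the intron window the E-box begins on the base after the central one.

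**Figure D2:**
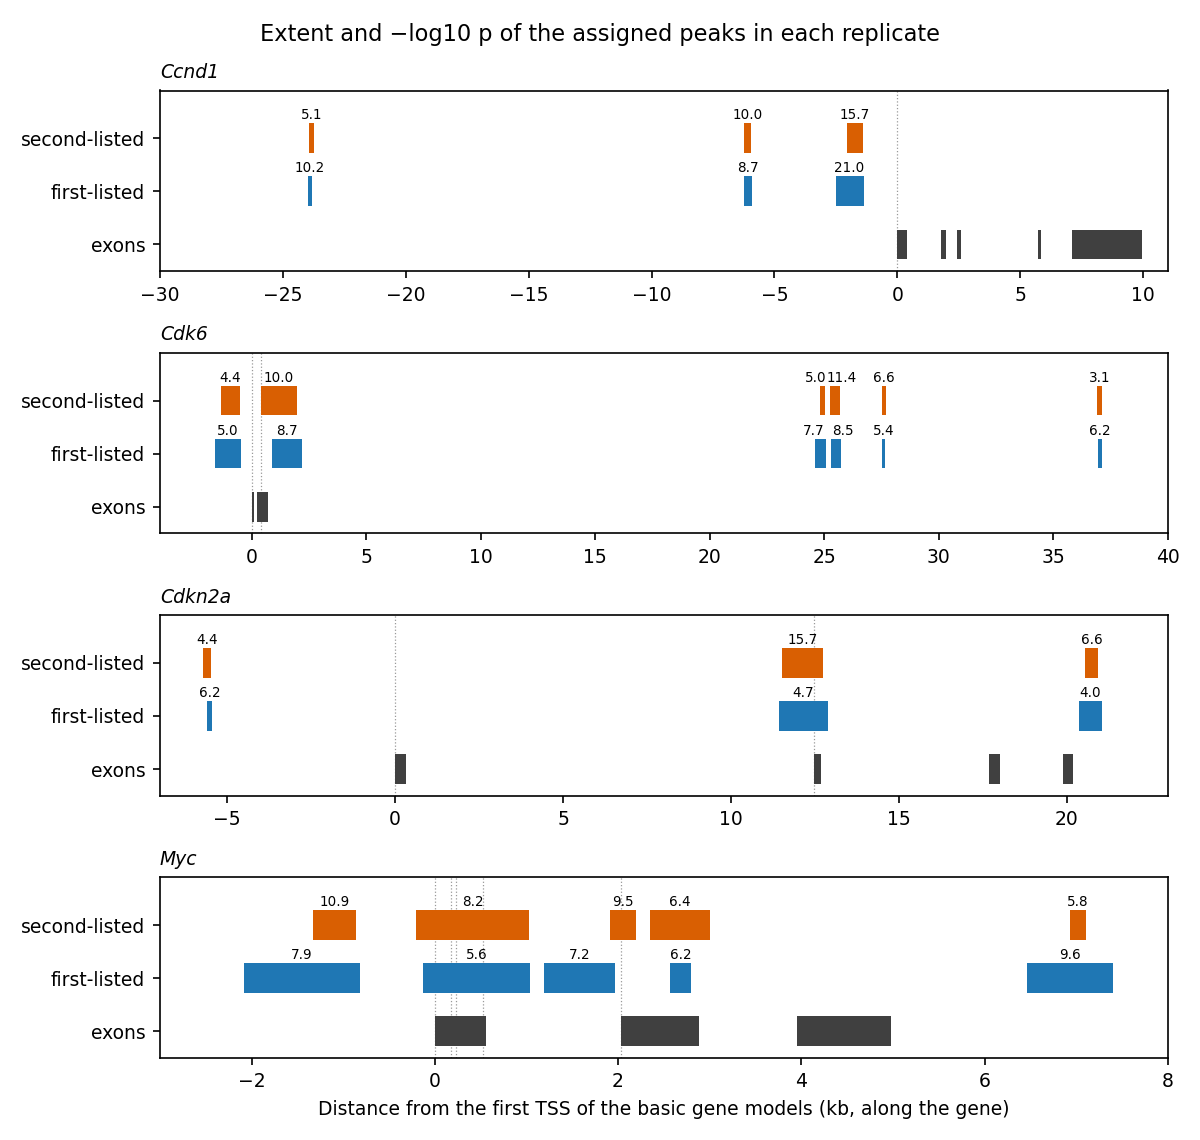
Boxes give the extent of each assigned peak in the first-listed (blue) and the second-listed replicate (orange), with its −log10 p above, over the exons (grey) and TSSs (dotted lines) of 4 genes, in kb from the first TSS of the basic gene models along the gene. At Cdkn2a the peak over the downstream TSS has 4.7 and 15.7, and at Myc 4 peaks follow each other from upstream of the gene into its second exon.

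Cdkn1a and Cdkn1b encode the inhibitors p21 and p27, and only Cdkn1b had an assigned peak. The peak, chr6:134920783-134921604, began 270 bp inside the gene by the authors' annotation and covered 612 bp of exons, of which 475 bp were coding. Its −log10 p was 5.69 in the first-listed and 9.10 in the second-listed replicate, with a global IDR of 0.525. The replicates shared only 52 bp of it, and their summits were 396 bp apart. The RefSeq promoter of Cdkn1b lay 333 bp outside the peak.

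Other genes held most of the peaks around Cdkn1b. Within 100 kb of its TSSs there were 7 peaks, its own included, and 98.6% of protein-coding genes had as many or fewer. The nearest peak of another gene, chr6:134927970-134928895, was assigned to Lockd, a noncoding RNA gene that lies downstream of Cdkn1b, and was 7457 bp away. It had 8.97 and 10.4, more in both replicates than the Cdkn1b peak itself. Cdkn1a had no such surroundings, since its nearest peaks, assigned to Srsf3 and Stk38, lay 58380 bp and 86646 bp upstream with matched values of 4.32 and 6.92.

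Cdkn2a and Cdkn2b lie side by side and encode the INK4 inhibitors. Cdkn2a has 2 promoters, of which the downstream one starts the transcript for p16INK4a and the upstream one the transcript for p19ARF, a protein in another reading frame that acts on the p53 pathway. A peak covered the p16INK4a TSS, at chr4:89281768-89283231, and included all 300 bases of its RefSeq promoter. No peak lay on the p19ARF promoter, which was 5229 bp from the nearest one. The replicates differed most at this peak among the 27. Its −log10 p was 4.71 in the first-listed replicate, at percentile 18.8, and 15.7 in the second-listed, at percentile 97.8. The heights were 11 and 23 fragments, both over the genome-wide background, and the global IDR was 0.589.

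The p16INK4a promoter is shown because it lay wholly under a peak, alone among the 10 RefSeq promoters held for 7 of these genes (none for Ccnd1, Ccnd2 and Myc). It is given 5′ to 3′ along the gene, which is on the minus strand, at chr4:89282143-89282442 (RefSeq, GRCm38.p6), with the 50 bases from the TSS in capitals.
Cdkn2a p16INK4a promoter: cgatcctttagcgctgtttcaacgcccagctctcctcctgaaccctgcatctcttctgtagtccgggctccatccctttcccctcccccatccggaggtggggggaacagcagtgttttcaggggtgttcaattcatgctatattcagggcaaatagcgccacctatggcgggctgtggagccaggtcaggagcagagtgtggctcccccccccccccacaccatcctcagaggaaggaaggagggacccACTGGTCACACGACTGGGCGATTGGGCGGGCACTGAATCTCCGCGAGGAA
Its GC content was 60.3% with 12 CG dinucleotides, against 77% and 45 for the p19ARF promoter and medians of 52.7% and 7 over the 32851 promoters in the table. None of the AP-1, TEAD, E-box and E2F motifs or hexamers counted below lay in it.

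The other Cdkn2a peaks flanked the gene. One lay 5445 bp upstream of the p19ARF TSS (chr4:89300098-89300373) with 6.15 and 4.39, and one beyond the 3′ end (chr4:89273618-89274290) with 4.04 and 6.61. Which of the pair was higher thus depended on the replicate. The single Cdkn2b peak, chr4:89310729-89311061, overlapped its TSS and covered 79 bases of its RefSeq promoter and 69 bp of coding sequence. Only the first-listed call reached the TSS and that promoter, and the second-listed call began 0.102 kb inside the gene. The −log10 p of this peak was low in both replicates, 4.04 in the first-listed and 4.31 in the second-listed, at percentiles 9.26 and 11.6. Its score was the lowest of the list, as was that of 12 of the 27 peaks (44.4%) and of 41.4% of all peaks. A further 12 peaks within 100 kb of the Cdkn2b TSS belonged to the noncoding gene Gm12610, upstream of it. With these, Cdkn2b had 16 peaks within 100 kb and Cdkn2a 12, many of them the same, and 99.96% and 99.7% of protein-coding genes had as many or fewer.

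Myc had 5 peaks, of which 4 were of the promoter class and followed each other over 5081 bp, with gaps of 611 bp, 153 bp and 152 bp. In order along the gene, chr15:61983314-61984574 upstream had −log10 p of 7.95 and 10.9, and chr15:61985186-61986429, which overlapped 4 annotated TSSs, had 5.56 and 8.25. Next, chr15:61986583-61987590 had 7.17 and 9.54, and chr15:61987743-61988394 had 6.15 and 6.39. All 4 were higher in the second-listed replicate. The last of them covered 536 bp of coding sequence, and its replicates shared 232 bp. Peaks, taken as joined intervals, covered 54.2% of the 4984 bp of the Myc gene. Only 15 protein-coding genes, Myc included, were covered as much by such intervals. The part of Myc called in both replicates was smaller.

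The fifth Myc peak lay 1478 bp beyond the gene (chr15:61991853-61992792), with 9.57 in the first-listed and 5.84 in the second-listed replicate, and reversed the order of the other 4. No Myc peak reached a global IDR of 0.05, and the values ran from 0.251 to 0.525. The replicates differed in where they placed these peaks. Their summits were 38 bp to 823 bp apart, and at chr15:61986583-61987590 their calls shared only 53 bp. Chromosome 15 had the most peaks per Mb of the 20 chromosomes, 8.29. It also had the smallest shares of values on the genome-wide background, 21.6% and 26.7% in the 2 replicates, and at Myc 1 and 2 of the 5 values lay on it. The remaining values did not match that background, and what MACS2 scored them against was not tested.

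The downstream Myc peak is shown because it is the member peak with the most AP-1 motifs over its whole length, 3. The 201 bases around its matched summit (plus strand of GRCm38, chr15:61992447-61992647) hold 1, in capitals.
Myc downstream: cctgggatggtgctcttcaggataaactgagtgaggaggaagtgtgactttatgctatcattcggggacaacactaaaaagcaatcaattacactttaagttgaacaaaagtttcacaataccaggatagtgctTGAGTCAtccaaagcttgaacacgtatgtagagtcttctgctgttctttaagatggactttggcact
The matched summit lay midway between those of the replicates, which were 309 bp apart.

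Beyond Myc, the noncoding gene Pvt1 held 9 peaks within 500 kb, the nearest 40512 bp from a Myc TSS. One of them, chr15:62286713-62287765, was the strongest within 500 kb of any of the 10 genes, with 26.3 in the first-listed and 22.0 in the second-listed replicate and a global IDR of 0.000513. It lay 299291 bp downstream of the nearest Myc TSS. Of 110 peaks of other genes in these windows, 2 reached a global IDR of 0.05, this one and the Fgf23 peak. Where each peak was instead given to the protein-coding gene with the nearest TSS, 6 of the 10 genes had a peak, beside 22.1% of protein-coding genes, but the peaks numbered 71, with 28 at Myc, 20 at Cdkn2b and 3 at Cdkn1b, since peaks of noncoding genes passed to these.

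Taken over the 27 peaks, the values were close to those of the list. The matched −log10 p had a median of 5.56 beside 5.53, and 14 of the 27 (51.9%) reached the median of the list. The medians were 6.15 in the first-listed and 6.61 in the second-listed replicate, beside 6.92 and 6.61. The second-listed value was the higher at 17 of 27 (63.0%, 95% Wilson interval 44.2% to 78.5%), beside 47.9% of all peaks. At the promoters of the 6 genes it was the higher at 8 of 10 peaks, beside 53.2% of all promoter peaks. The medians there were 5.92 and 9.32, beside 6.15 and 6.61 at all promoter peaks. Across the 27 peaks, which come from the same pair of libraries, Spearman's rho between the replicates was 0.36, beside 0.263 for the list. Their median absolute difference was 2.02, while the quartiles of the matched values were 4.39 and 7.56. The difference between replicates was thus not small beside the spread among the 27 peaks, and how many peaks differed by more was not counted. The Ccnd1 proximal peak was above every other peak in the first-listed and was equalled only by the p16INK4a peak in the second-listed replicate.

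**Figure D3:**
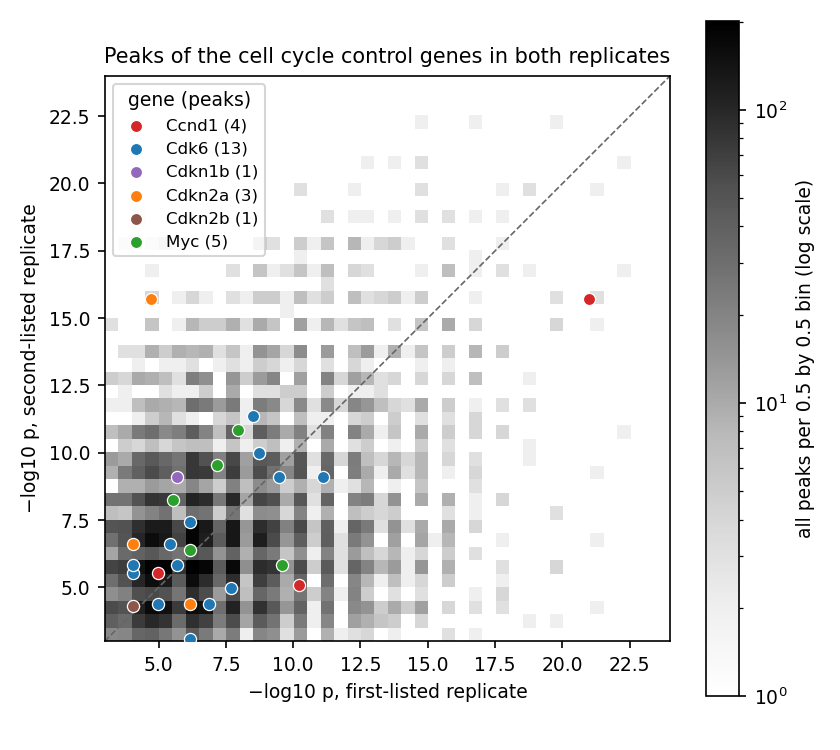
Each dot is 1 of the 27 peaks, by its −log10 p in the first-listed (horizontal) and the second-listed replicate (vertical), over the number of all peaks in bins of 0.5 (grey, log scale), with equal values on the dashed line. The Ccnd1 proximal peak stands at 21.0 and 15.7 and the p16INK4a peak at 4.71 and 15.7, apart from the other 25.

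Promoter peaks made up 10 of the 27 (37.0%, 21.5% to 55.8%), beside 21.3% of the list, distal intergenic peaks 13 (48.1%) beside 37.2%, and intron peaks 4 (14.8%) beside 35.9%. The intervals cover counting error over peaks only, and peaks are not replicates. Promoter summits of the 6 genes had a median GC content of 60.2% and 12.5 CG dinucleotides in 201 bases, beside 48.8% and 4 at all promoter peaks. The other 17 summits had 44.3% and 2, beside 42.8% and 2. The Myc peak at chr15:61986583-61987590 had the most, 27.

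Sequence motifs were counted within 100 bp of the matched summits on both strands. AP-1 motifs (TGACTCA or its complement TGAGTCA) lay at 3 of 27 summits (11.1%, 95% Wilson interval 3.85% to 28.1%), beside 14.3% of all summits. They were at the downstream Myc peak and at 2 distal Cdk6 peaks. The TEAD motif GGAATG also lay at 3 summits, beside 19.03% of the list. These were both Cdk6 promoter peaks and the last Cdk6 intron peak, where the match ran past the end of the called peak. The E-box CACGTG, the site to which MYC binds with MAX, was at 1 summit, the same intron peak of Cdk6, beside 2.86%. E2F motifs (TTTGGCGC, TTTCCCGC, TTTGCCGC or TTTCGCGC) were also at 1, the Myc peak over the TSSs, beside 0.565%. The study names TTTC/AT as a potential PRDM6 motif. If the slash gives alternatives at 1 position, this is TTTCT or TTTAT, and these pentamers were at 19 of 27 summits (70.4%, 51.5% to 84.1%), beside 82.8% of all summits, a count added after seeing the data. The hexamers TTTCAT and TTTCCT, another set of letters, were at 7 of 27 summits (25.9%, 13.2% to 44.7%), beside 43.1% of all summits. Of these 7, 5 were Cdk6 peaks and 2 Ccnd1 peaks, and none was at a promoter. These shares are a description of short letter runs and give no site of binding. The matched summit lay between those of the replicates at 22 of the 27 peaks (81.5%), beside 90.0% of all peaks. Summits of the replicates lay more than 300 bp apart at 7 peaks (25.9%), beside 20.5% of all peaks. The counts therefore depend on which summit is used. In the RefSeq promoters, whose table held 7 of the 10 genes (all but Ccnd1, Ccnd2 and Myc), the E-box lay 4 times in the Cdk4 and once in the Cdk6 promoter, beside 7.15% of all promoters with any, and an E2F motif in the p19ARF promoter, beside 2.26%. A TEAD motif lay in 1 of the Ccnd3 promoters, beside 14.7%, the hexamers in 1 Ccnd3 and 1 Cdkn1a promoter, beside 38.9%, and AP-1 motifs in none, beside 5.20%.

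Other genes of the same circuit were set beside these 10, in 10 lists of 55 genes. Of the 55, 14 (25.5%) had an assigned peak, beside 20.0% of protein-coding genes, and 6 had one at the promoter, beside 8.24%. None of the 5 genes for cyclins E, A and B had an assigned peak, nor did Cdk1 or Cdk2. Within 100 kb of a TSS, Ccna2 had 4 peaks assigned to other genes and Ccnb1, Ccnb2 and Cdk2 had 1 each. In the RB family, the targets of CDK4 and CDK6, Rb1 had 1 peak with −log10 p of 3.70 and 7.14, Rbl1 had 2, and Rbl2 none. Of 10 E2F and DP genes, E2f6 had 6 peaks and Tfdp2 had 1. The strongest E2f6 peak, with 12.03 and 16.7, had a global IDR of 0.0316 and was the only one among the 55 genes at or below 0.05, beside 1.63% of protein-coding genes with such a peak. The other INK4 genes were Cdkn2c, with a promoter peak at 5.42 and 6.61, and Cdkn2d, with none. In the MYC network, Mycn had 2 peaks and Mxi1 and Mnt 1 each, of 10 genes, and Max, the partner of MYC, had none. In the p53 arm, Mdm2 had 1 peak, with 7.17 and 21.9, and Trp53 and Mdm4 none. Of 7 AP-1 genes, Fosl2 had 4 peaks and Jun 3. Of 6 TEAD and YAP genes, Wwtr1 had 8 and Tead1 had 6. Of 6 turnover and phosphatase genes only Fbxw7, which targets cyclin E and MYC for degradation, had a peak.

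**Figure D4:**
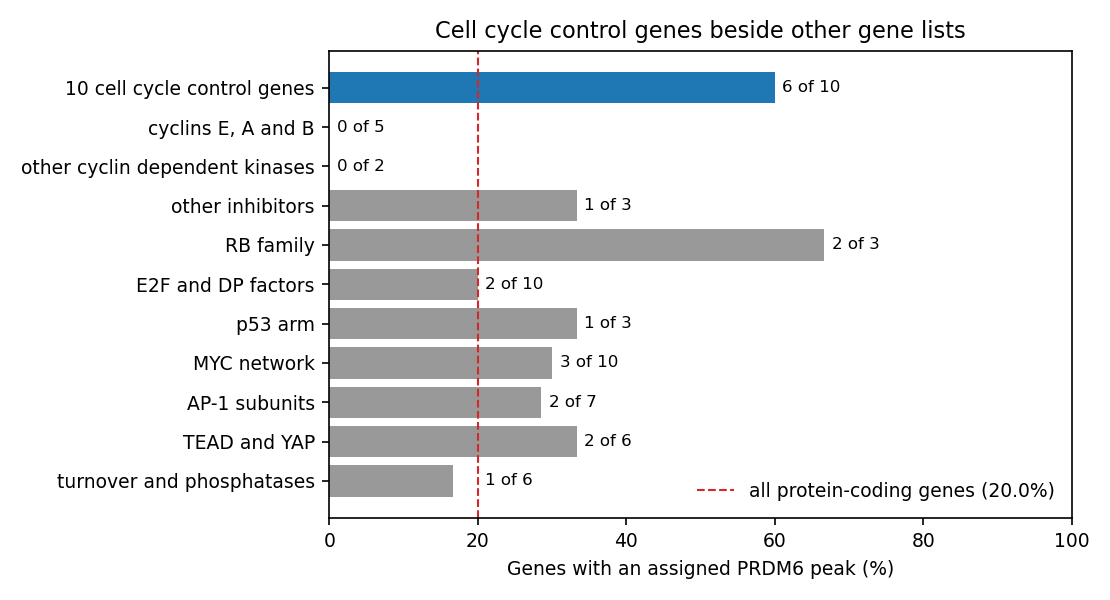
Bars give the percent of genes with an assigned peak in the 10 genes described here (blue) and in 10 lists of other genes (grey), with the counts at the bar ends, and the dashed line marks the 20.0% of all protein-coding genes. The 10 genes stand at 60%, and the lists of 2 to 10 genes run from 0% to 66.7%. All these genes were chosen with earlier results of these data known.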

How the data were processed

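The data used were the deposited list of 13977 peaks of 2 PRDM6 ChIP libraries and its annotation. Per the study's methods, the authors aligned paired reads to mm10 with BWA (mapping quality of at least 13) and called peaks in each replicate against its input with MACS2 at a p-value below 0.001. Per the file layout they matched the replicates by IDR. Versions are not given in the sources used here. The deposited −log10 p-values are those of MACS2, and the deposited score is a scaled IDR, where 540 stands for a global IDR of 0.05. The authors assigned 1 gene and 1 gene region to each peak.

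From these, peaks were selected by gene symbol. Sequence came from GRCm38.p6 and transcripts from GENCODE M21 (basic set), both in mm10 coordinates. Heights were read back where a −log10 p-value lay within 0.0002 of a Poisson tail, a search tested on simulated data. Depth was otherwise unknown. Shares have 95% Wilson intervals, which cover counting error only. No test between groups was possible. The scripts ran on pandas 2.3.3, NumPy 2.4.6 and SciPy 1.17.1 under Python 3.11.15. The genes described, and the lists of other genes (all of whose members with a peak are counted, with values for the strongest), were chosen with earlier results of these data known. Other IDR limits, assignments, promoter and motif windows and each replicate alone were tried.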

Additional observations from a re-analysis of the deposited data

How the results depend on the processing

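At a global IDR of at most 0.05, the genes with a peak fell to 1 of 10 and 1 of 55, beside 1.63% of protein-coding genes. The peaks of the 10 genes fell to 1, and the median −log10 p became 15.7, that of the 1 peak left. This was a promoter peak, as were 14.8% of all peaks at this limit. Summits with an AP-1 or a TEAD motif fell to 0 each, beside 25.2% and 28.4%, and 1 peak gives no share to compare. The 1 peak was kept at a limit of 0.01. Giving peaks to the nearest protein-coding TSS left 6 of 10 genes but 71 peaks. Counting any peak within 100 kb of a TSS gave 9 of 10 genes beside 44.0% of protein-coding genes, 52 peaks and 30 of 55 other genes. Leaving out 1 replicate each gave medians of 6.15 and 6.61. Over whole peaks the motif counts were 5 for AP-1, 10 for TEAD, 3 for the E-box, 2 for E2F and 22 for the hexamers, beside shares of 34.3%, 44.6%, 8.58%, 1.56% and 76.7% of all peaks. Within 50 bp of the summit, 1 summit had a TEAD and 0 an E2F motif, beside 10.4% and 0.265% of all peaks. At summits of single replicates, an alternative chosen after seeing the data, the E-box was at 2 first-listed summits (2.81% of all peaks), and AP-1 at 1 and E2F at 0 second-listed summits (12.3% and 0.551%). TEAD motifs were at 4 first-listed and 2 second-listed summits (18.5% and 18.3%), and the hexamers at 10 and 8 (42.5% and 40.5%). With the pentamers TTTCT or TTTAT in place of the hexamers, also chosen after seeing the data, the count was 19, beside 82.8%. Of 45 alternatives, 24 left the value within 1.5 times, or within the replicate spread, of the one reported. The causes were not tested, beyond the fewer peaks or longer windows that these alternatives use by construction. Heights could be read back for 15 and 17 of the 27 peaks in the 2 replicates and ran from 10 to 29 fragments, and the precision of a single peak was not tested. No paired analysis was possible because the list holds no values of the Input group.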
